A study of Zea mays with 7 samples.

Results

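Among the 110451 genes counted in maize ear primordia, 20 genes shared an uneven pattern over the *Bif3* replicates. They were high in *Bif3* replicate 4, the same pool in which *ZmWUS1* was highest. The genes were selected on their levels in CPM, which scale each count to the total of its pool. A gene was taken when its mean over the 4 *Bif3* pools was at least 2 CPM and replicate 4 was at least 2 times the highest of replicates 1 to 3. The limit on level left 19807 genes. The limit on the ratio left 23 of them, and 3 of these, *ZmWUS1*, *ZmCLE7* and *ZmLOG7a*, were set aside because they are the stem cell genes to which the pattern was compared. *TD1* was set aside too, although its ratio of 1.99 was just under the limit. Because the *Bif3* levels chose the 20 genes, their height in replicate 4 is a description and not a finding. The wild-type levels took no part in the choice.

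The *Bif3* mutation adds a tandem-duplicated copy of *ZmWUS1*, and its ears are ball-shaped with enlarged inflorescence meristems. RNA was taken from field-grown ear primordia of 3 to 4 mm in the B73 inbred background, with 4 pools of *Bif3* and 3 pools of wild-type siblings and 3 ears in each pool. The labels describe the *Bif3* ears by their mutant appearance, and only the Methods of the study call them homozygous. All *Bif3* pools carry the single available allele, *Bif3-ref*, after backcrossing to B73, so the comparison covers this allele in this background only. No treatment or transgene was used, and both genotypes share the inbred background and the field growth. The pools held whole primordia, so a larger share of cells of a type and more RNA per cell cannot be told apart.

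In plant meristems, WUSCHEL is a homeodomain transcription factor that keeps stem cells undifferentiated from the cells beneath them. CLE peptides, such as CLAVATA3 in Arabidopsis, are perceived by leucine-rich repeat receptors and restrict *WUSCHEL* expression, which closes a feedback loop. In maize, *ZmCLE7* encodes such a peptide, *TD1* encodes a receptor kinase of the CLAVATA1 type, and *LOG* genes encode enzymes that release active cytokinin.

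Total counts were between 41720131 and 56057512 per pool, and 3 counts, the level below which a gene was not treated as detected, were worth 0.0535 to 0.0719 CPM. These limits cover counting error only. No pair of pools held the same library. *KN1*, a homeobox gene of meristems, was between 414 and 603 CPM in every pool, and the epidermal gene *ZmOCL4* and the organ primordium gene *ZYB15* were detected in all of them, as the tissue label asks. Wild-type replicate 1 stood apart in the summed level of 10 heat shock genes, with 398 CPM against 68.1 to 127 CPM in the other pools.

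The 4 genes set aside give the pattern. *ZmWUS1* (*GRMZM2G047448*) had 4.47, 5.25, 3.83 and 12.5 CPM in *Bif3* replicates 1 to 4 and 0.551, 0.321 and 0.311 CPM in wild-type replicates 1 to 3. *ZmCLE7* (*GRMZM2G372364*) had 2.47, 5.15, 2.86 and 17.2 CPM in *Bif3* and 1.08, 0.624 and 0.815 CPM in wild-type. In both, the *Bif3* pools all exceeded the wild-type pools and replicate 4 was above the other *Bif3* pools, by 2.39 times for *ZmWUS1* and 3.33 times for *ZmCLE7*. *ZmLOG7a* (*GRMZM2G059392*) had 7.91, 5.65, 8.93 and 24.7 CPM in *Bif3* and 19.8, 11.0 and 17.4 CPM in wild-type. Its replicates 1 to 3 were below every wild-type pool and its replicate 4 was above them all. *TD1* (*GRMZM2G300133*) had 20.6, 21.1, 14.4 and 41.97 CPM in *Bif3* and 15.5, 9.17 and 10.4 CPM in wild-type. These genes already show that a peak in replicate 4 can sit on a *Bif3* level above, near or below that of wild-type.

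**Figure D1:**
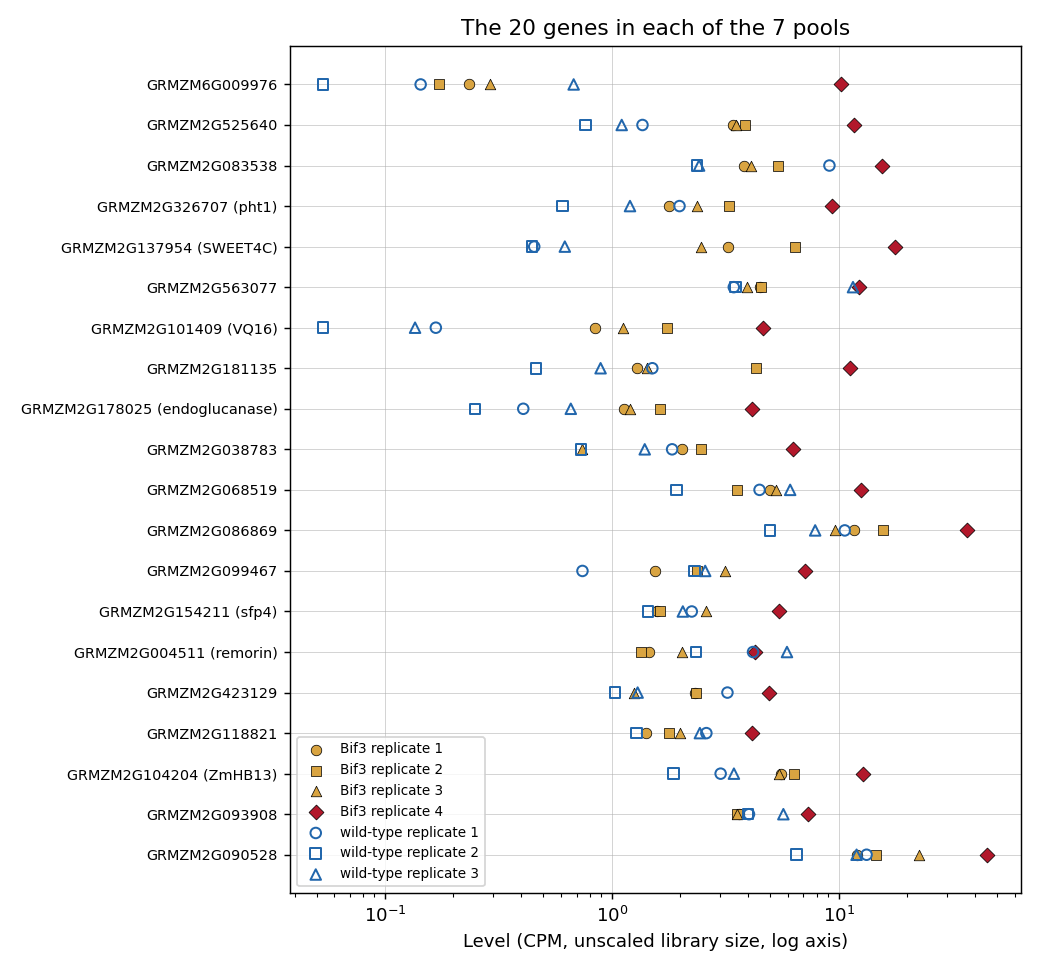
Level of each of the 20 genes in the 7 pools, in CPM with unscaled library sizes on a log axis. Filled symbols are *Bif3* pools, with replicate 4 as a dark diamond, and open symbols are wild-type pools. Genes are ordered by the ratio of replicate 4 to the highest of the other *Bif3* pools, from 35.3 at the top to 2.01 at the bottom. In 19 of the 20 genes the diamond lies to the right of every wild-type pool.

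The 20 genes differed in how their other *Bif3* pools related to wild-type. *Bif3* replicate 4 was above every wild-type pool in 19 genes, beside 25.6% of the 19807 genes past the level limit, a count that the choice of the genes favours. The exception was the remorin gene *GRMZM2G004511*. Replicates 1 to 3 were all above every wild-type pool in 5 genes (15.7% of the 19807 genes), all below every wild-type pool in 2 genes (11.5%), and overlapped wild-type in the other 13. With replicate 4 included, all 4 pools exceeded wild-type in the same 5 genes, beside 12% of the 19807 genes, and all 4 were below it in none, beside 9.65%. Among the 6103 genes whose mean levels in both genotypes were within the ranges of the 20 genes, replicates 1 to 3 were all above wild-type in 24.8% and all 4 pools in 20.3%, so the 5 genes, 25% of the set, are close to the share among genes of similar level.

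Differential expression between *Bif3* and wild-type was read from a quasi-likelihood test in edgeR over 40650 genes, using Benjamini-Hochberg adjustment and the thresholds of the study, which were p under 0.05, adjusted p under 0.1 and a fold change over 1.5. Because *Bif3* values chose the genes, these calls describe them and are no independent evidence. With all 7 pools, 5 of the 20 genes were called higher in *Bif3* and none lower, while 3.39% of all genes tested were called higher and 0.598% lower. Of the 19807 genes past the level limit, 990 were called higher and 113 lower. The count of 5 among the 20 genes was 3 without wild-type replicate 2 and 8 without *Bif3* replicate 3. The median log2 fold change of the 20 genes was 1.13, and 18 were above 0, whereas the 19807 genes had a median of -0.04 with 8399 above 0. Without replicate 4, the same 5 genes were called higher and 1 lower, beside 2.44% and 0.477% of the 40004 genes then tested. Of the 19807 genes, 765 were then called higher and 104 lower. The median of the 20 genes fell to 0.31, with 13 above 0. No gene of the set was lower at an unadjusted p under 0.05 with all pools, nor was any called lower by DESeq2 or limma-voom, and 10 were higher at that level. Of these, *GRMZM2G326707*, *GRMZM2G181135*, *GRMZM2G086869*, *GRMZM2G090528* and *GRMZM6G009976* had p-values between 0.00795 and 0.0415 in the fit with all pools and missed the adjusted threshold. The p-values set the difference between genotypes against the spread between pools of ears, and fold changes are given with their standard error (SE).

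**Figure D2:**
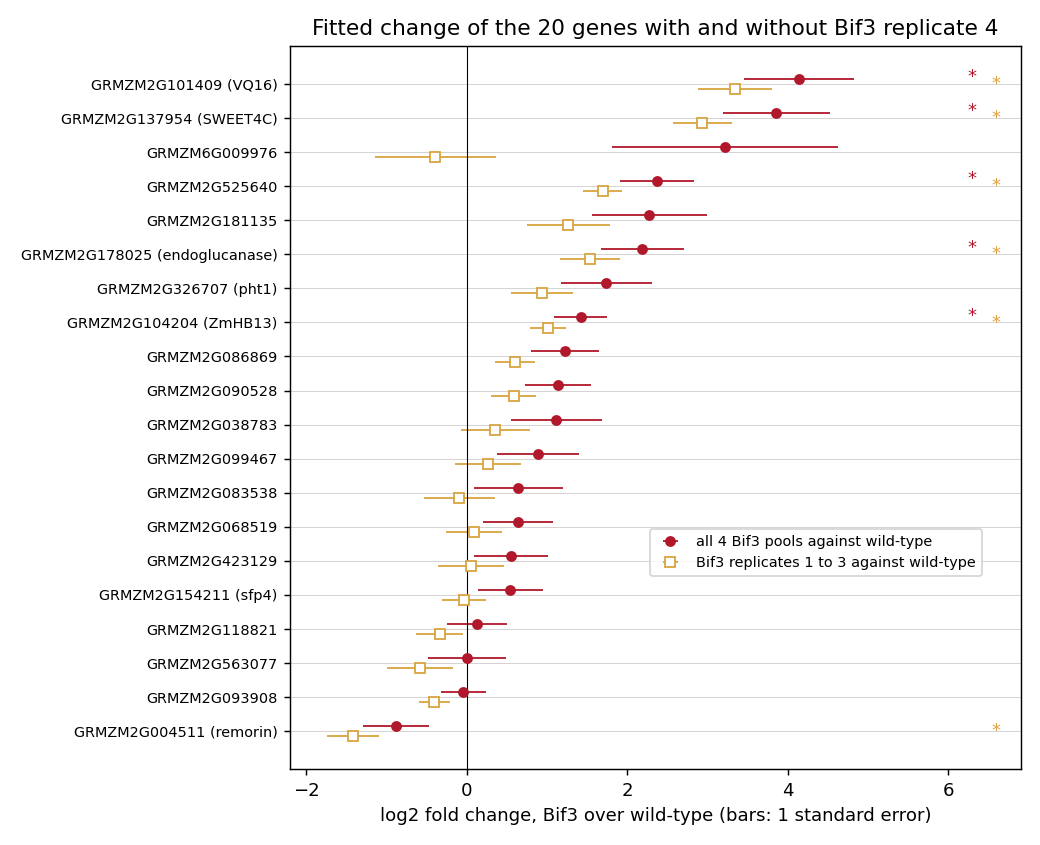
Fitted log2 fold change of *Bif3* over wild-type for the 20 genes, with all 4 *Bif3* pools (filled circles) and with replicates 1 to 3 only (open squares). Bars are 1 standard error from edgeR, and an asterisk in the colour of a fit marks a gene past the threshold in it. The same 5 genes are called higher in both fits, and the remorin gene is called lower without replicate 4.

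The 5 genes above wild-type in every *Bif3* pool had no annotation in common. *SWEET4C* (*GRMZM2G137954*) belongs to the SWEET family of sugar exporters, and in maize it is known for carrying hexoses into the developing kernel. It had 3.25, 6.41, 2.48 and 17.7 CPM in *Bif3* replicates 1 to 4 and 0.455, 0.446 and 0.621 CPM in wild-type. The wild-type pools lay close together, and the lowest *Bif3* pool was above them all. The log2 fold change was 3.86 (SE 0.67, edgeR adjusted p = 0.0120), a 14.5-fold difference. Without replicate 4 it was 2.93 (SE 0.37, adjusted p = 0.00674), or 7.64-fold, so the difference from wild-type did not rest on the peak.

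*VQ16* (*GRMZM2G101409*) had the fewest wild-type counts of the 5. VQ-motif proteins are small plant proteins known to bind WRKY transcription factors, and the closest Arabidopsis gene in the study's annotation, *CAMBP25*, encodes a calmodulin-binding protein. The gene table of the current B73 assembly lists the locus as a transcribed pseudogene. It had 36, 81, 50 and 236 counts in *Bif3* and 7, 3 and 7 counts in wild-type, or 0.847, 1.76, 1.12 and 4.64 CPM against 0.168, 0.0535 and 0.136 CPM. Wild-type replicate 2 was at the detection limit and the other wild-type pools were close to it. The log2 fold change was 4.14 (SE 0.69, edgeR adjusted p = 0.00980), or 17.6-fold, and without replicate 4 it was 3.35 (SE 0.46, adjusted p = 0.00983), or 10.2-fold. This was the highest fold change of the 20 genes, and it rests on few wild-type counts.

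*GRMZM2G525640* has no name in the sources used here. Its *Bif3* replicates 1 to 3 were nearly equal, at 3.41, 3.86 and 3.51 CPM, with 11.7 CPM in replicate 4 and 1.37, 0.767 and 1.11 CPM in wild-type. Replicate 4 was 3.02 times the next *Bif3* pool, the second highest ratio of the set. The log2 fold change was 2.37 (SE 0.46, edgeR adjusted p = 0.0197) with all pools and 1.69 (SE 0.24, adjusted p = 0.0105) without replicate 4. The 3 pools that did not peak were thus also clear of wild-type.

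The endoglucanase gene *GRMZM2G178025* is listed under the synonym cellulase, and its closest Arabidopsis gene is *KOR2* of the KORRIGAN family, whose membrane-bound members cut glucan chains and act in cellulose synthesis. It had 1.13, 1.63, 1.21 and 4.15 CPM in *Bif3* and 0.407, 0.250 and 0.660 CPM in wild-type. *ZmHB13* (*GRMZM2G104204*), a homeobox gene whose closest Arabidopsis gene is the homeodomain-leucine zipper gene *ATHB21*, had 5.56, 6.38, 5.48 and 12.9 CPM in *Bif3* and 3.02, 1.87 and 3.46 CPM in wild-type. The groups did not overlap in either gene. The log2 fold change of the endoglucanase gene was 2.19 (SE 0.52, adjusted p = 0.0437), and 1.54 (SE 0.37, adjusted p = 0.0693) without replicate 4. That of *ZmHB13* was 1.42 (SE 0.33, adjusted p = 0.0399), or 2.68-fold, and 1.01 (SE 0.23, adjusted p = 0.0527), or 2.02-fold, without replicate 4. Both calls depended on the wild-type pools. Without wild-type replicate 2 the adjusted p became 0.103 for *ZmHB13* and 0.113 for the endoglucanase gene, and without wild-type replicate 1 it became 0.120 for the latter. *SWEET4C*, *VQ16* and *GRMZM2G525640* were called with every pool left out in turn.

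In a further group of 5 genes, replicate 4 was well above wild-type while the other *Bif3* pools reached into the wild-type range or lay beside it. The phosphate transporter gene *pht1* (*GRMZM2G326707*), of the family that takes up inorganic phosphate, had 1.79, 3.30, 2.37 and 9.39 CPM in *Bif3* and 1.99, 0.607 and 1.20 CPM in wild-type. *GRMZM2G181135* had 1.29, 4.32, 1.43 and 11.3 CPM in *Bif3* and 1.51, 0.464 and 0.893 CPM in wild-type. In both genes, wild-type replicate 1 was higher than the lowest *Bif3* pool. Their log2 fold changes were 1.74 (SE 0.56, adjusted p = 0.125) and 2.28 (SE 0.71, adjusted p = 0.114), and 0.94 (SE 0.39, adjusted p = 0.246) and 1.27 (SE 0.51, adjusted p = 0.239) without replicate 4. *GRMZM2G181135* was also among the most uneven of the set over replicates 1 to 3, with replicate 2 at 3.34 times replicate 1.

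The 2 genes with the most counts in the set had similar patterns. *GRMZM2G090528* had 12.0, 14.6, 22.5 and 45.2 CPM in *Bif3* and 13.3, 6.51 and 12.0 CPM in wild-type, and *GRMZM2G086869* had 11.7, 15.6, 9.64 and 36.95 CPM in *Bif3* and 10.6, 4.99 and 7.88 CPM in wild-type. Their ranges overlapped only through wild-type replicate 1 and the lowest *Bif3* pool. Log2 fold changes were 1.14 (SE 0.41, adjusted p = 0.166) and 1.23 (SE 0.42, adjusted p = 0.147), and 0.59 (adjusted p = 0.319) and 0.61 (adjusted p = 0.249) without replicate 4. *GRMZM2G038783* had 2.05, 2.48, 0.738 and 6.28 CPM in *Bif3* and 1.85, 0.731 and 1.40 CPM in wild-type, and its *Bif3* replicate 3 was as low as its lowest wild-type pool. Its log2 fold change was 1.12 (SE 0.57, adjusted p = 0.333).

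*GRMZM6G009976* stood apart from all others. It had 10, 8, 13 and 522 counts in *Bif3* and 6, 3 and 35 counts in wild-type, so replicate 4, at 10.3 CPM, was 35.3 times the next *Bif3* pool. The other 6 pools were between 0.0535 and 0.679 CPM, and the highest of them was wild-type replicate 3. The log2 fold change was 3.22 (SE 1.41, adjusted p = 0.260) with all pools and -0.39 (SE 0.75, adjusted p = 0.842) without replicate 4, so its high mean came from 1 pool. No name is paired with this gene in the sources used here.

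For 7 genes the log2 fold change was between 0 and 1 with all pools and between -0.58 and 0.27 without replicate 4, and none was called. Among them, *GRMZM2G083538* had 3.81, 5.38, 4.09 and 15.5 CPM in *Bif3* and 9.11, 2.37 and 2.43 CPM in wild-type. *GRMZM2G563077* had 4.50, 4.54, 3.94 and 12.4 CPM in *Bif3* and 3.45, 3.51 and 11.6 CPM in wild-type. In both, a single wild-type pool rose far above its siblings, replicate 1 in *GRMZM2G083538* and replicate 3 in *GRMZM2G563077*. The level of *GRMZM2G563077* in wild-type replicate 3 came close to that in *Bif3* replicate 4, and its log2 fold change was 0.01 (SE 0.48, adjusted p = 0.995). *GRMZM2G068519* had 4.99, 3.56, 5.28 and 12.5 CPM in *Bif3* and 4.48, 1.93 and 6.12 CPM in wild-type. *GRMZM2G099467* had 1.55, 2.37, 3.15 and 7.12 CPM in *Bif3* and 0.743, 2.32 and 2.58 CPM in wild-type. Both overlapped wild-type in replicates 1 to 3, with log2 fold changes of 0.64 (adjusted p = 0.485) and 0.89 (adjusted p = 0.398) over all pools. The other 3 genes, *sfp4* (*GRMZM2G154211*), *GRMZM2G423129* and *GRMZM2G118821*, had between 4.13 and 5.47 CPM in replicate 4, between 1.25 and 2.59 CPM in replicates 1 to 3 and between 1.03 and 3.24 CPM in wild-type. Their log2 fold changes were 0.55, 0.55 and 0.13, with adjusted p of at least 0.502, and -0.03, 0.05 and -0.33 without replicate 4.

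In 2 genes the *Bif3* pools other than replicate 4 were below every wild-type pool while replicate 4 was not, as in *ZmLOG7a*. The same was true of 1.87% of the 19807 genes. Remorins are plasma membrane proteins known to organize membrane domains, also at plasmodesmata. The remorin gene *GRMZM2G004511* had 1.46, 1.35, 2.04 and 4.29 CPM in *Bif3* and 4.19, 2.35 and 5.92 CPM in wild-type, so its peak in replicate 4 was within the wild-type range. Its log2 fold change was -0.88 (SE 0.41, adjusted p = 0.289) with all pools, and -1.41 (SE 0.33, edgeR adjusted p = 0.0590) without replicate 4, where it was the only gene of the set called lower. *GRMZM2G093908* had 3.65, 3.56, 3.58 and 7.32 CPM in *Bif3* and 4.03, 4.00 and 5.71 CPM in wild-type. Replicates 1 to 3 of this gene differed by less than those of any other of the 20, and its log2 fold change of -0.04 with all pools became -0.40 (SE 0.19, adjusted p = 0.321) without replicate 4. The log2 fold change of *ZmLOG7a* itself was -0.46 (adjusted p = 0.593) with all pools and -1.15 (adjusted p = 0.0350) without replicate 4. For these genes the peak in replicate 4 moved the mean of *Bif3* towards wild-type, and for the genes above wild-type it moved the mean away.

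The wild-type pools, which the choice did not use, were uneven too. Wild-type replicate 2 was the lowest wild-type pool in 18 of the 20 genes, against 30.4% of the 19807 genes, and the exceptions were *GRMZM2G563077* and *GRMZM2G099467*, which were lowest in replicate 1. It was the highest wild-type pool in none of the 20, against 30.9% of the 19807 genes. Replicate 1 was the highest in 11 and replicate 3 in 9. The highest wild-type pool was at least 2 times the lowest in 15 genes, or 75%, against 4.04% of the 19807 genes. Among the 6103 genes of similar level, 34.8% were lowest in wild-type replicate 2 and 9.31% had wild-type pools at least 2-fold apart. Uneven wild-type pools were also common in the genes that the same rule found with another *Bif3* pool, at 3 of 4 genes for replicate 1, 8 of 10 for replicate 2 and 2 of 6 for replicate 3. Over all 19807 genes, deviations from the genotype mean, on TMM-scaled log2 levels, were also related between *Bif3* replicate 4 and the wild-type pools. Their correlation was 0.041 with wild-type replicate 1, -0.342 with replicate 2 and 0.332 with replicate 3. Over all genes, higher levels in *Bif3* replicate 4 thus went in part with lower levels in wild-type replicate 2. The wild-type deviations of a gene cancel out, so these correlations are not independent of each other. They do not count how often a pool is lowest, and a lowest wild-type replicate 2 was far more frequent in the 20 genes than over all genes. No test was made of these shares, because genes measured in the same pools are not independent of each other.

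**Figure D3:**
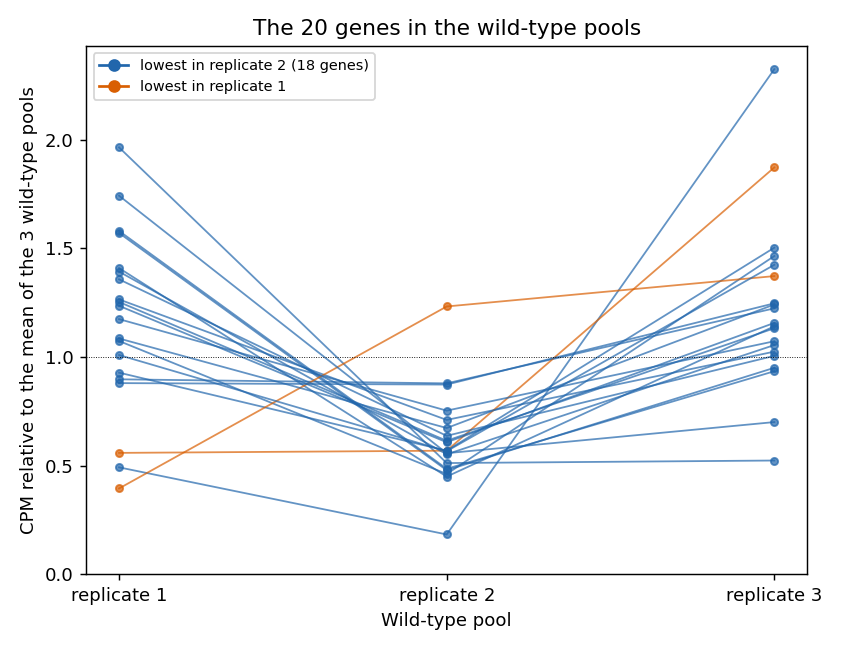
Level of the 20 genes in the 3 wild-type pools, as CPM divided by the mean of the gene over these pools. Each line joins the values of 1 gene and the pools have no order. In 18 genes (blue) replicate 2 is the lowest pool, and in the other 2 (orange) replicate 1 is.

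The count of 15 rested on 2 of the pools, as it was 6 without wild-type replicate 1, 5 without replicate 2 and 12 without replicate 3. Of the genes set aside, *ZmCLE7*, *ZmLOG7a* and *TD1* were lowest in wild-type replicate 2, and *ZmWUS1* was about equal in replicates 2 and 3. The heat shock list moved with part of this pattern in wild-type, at 398, 74.9 and 127 CPM in replicates 1 to 3, but its *Bif3* sums of 68.1, 105, 117 and 94.3 CPM had replicate 4 within the range of the other pools. Its part in the wild-type pattern was not tested. No member is in that list, and of its 10 genes 9 were tested. Of these, edgeR called 1 lower in *Bif3*, beside 0.598% of all genes tested, and limma-voom called 0.

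*Bif3* replicates 1 to 3, whose highest value the rule used, differed from each other as well. They were at least 2-fold apart in 5 of the 20 genes, namely *SWEET4C*, *VQ16*, *GRMZM2G181135*, *GRMZM2G038783* and *GRMZM2G099467*. The share was 2.98% of the 19807 genes and 7.91% of the 6103 genes of similar level. The highest of the 3 was replicate 2 in 12 genes, replicate 3 in 7 and replicate 1 in 1, or 0 with TMM-scaled levels. Among the 19807 genes the shares were 27.1%, 35.2% and 37.8%, and among the 6103 genes of similar level they were 35.5%, 25.2% and 39.3%. The order of *ZmWUS1*, with replicate 2 above 1 and 1 above 3, was found in 6 of the 20 genes. These were *SWEET4C*, *GRMZM2G563077*, *GRMZM2G038783*, *GRMZM2G086869*, *GRMZM2G423129* and *ZmHB13*. The 6 genes are 30% of the set, beside 17.4% of the 19807 genes and 25.0% of the 6103 genes of similar level. With TMM-scaled levels 5 genes had this order, so the share is close to that among genes of similar level. Most of the genes therefore peaked where *ZmWUS1* did without ranking the remaining pools in its order.

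The same rule with another *Bif3* pool in the place of replicate 4 found 4 genes for replicate 1, 10 for replicate 2 and 6 for replicate 3, before any gene was set aside, beside 23 for replicate 4. Wild-type replicate 2 was the lowest wild-type pool in 2 of the 4, 2 of the 10 and 3 of the 6 genes. In the other direction, 15 genes were in replicate 4 at or below 1/2 of the lowest other *Bif3* pool, and 9, 9 and 54 genes were so in replicates 1, 2 and 3. A gene set peaking in a single pool was thus no property of replicate 4 alone, although its set was the largest of the 4.

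The peak was not a rise of all stem cell genes in replicate 4. A list of 19 genes of the CLAVATA-WUSCHEL pathway and of meristem function was read, several of which the study picked from these libraries. In *Bif3*, edgeR called 10 of them higher and 5 lower, beside 3.39% and 0.598% of all genes tested. DESeq2 called 9 higher and 4 lower, and limma-voom 6 higher and 4 lower. *TD1* passed at an edgeR adjusted p of 0.0991. Replicate 4 was the highest *Bif3* pool for 10 of the 19, beside 21.2% of the 19807 genes past the level limit. It was at least 2 times the next pool only for *ZmWUS1*, *ZmCLE7* and *ZmLOG7a*. *TD1* was at 1.99, and *ABPH1*, a response regulator that acts in cytokinin signalling, had 5.70, 4.21, 7.43 and 12.5 CPM in *Bif3*, a ratio of 1.68. Other genes of the list went the opposite way. The CLE peptide gene *ZmCLE2-2* had 27.5, 25.1, 9.57 and 11.2 CPM, so its replicate 4 was 0.408 of the highest other pool, and the SBP-box transcription factor gene *TGA1*, with 17.8, 15.6, 2.98 and 3.40 CPM, was at 0.191. The receptor kinase gene *ZmBAM1d*, with 439, 482, 279 and 307 CPM in *Bif3*, was at 0.636. In these 3 genes replicate 3 was the lowest *Bif3* pool and replicate 4 the next.

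**Figure D4:**
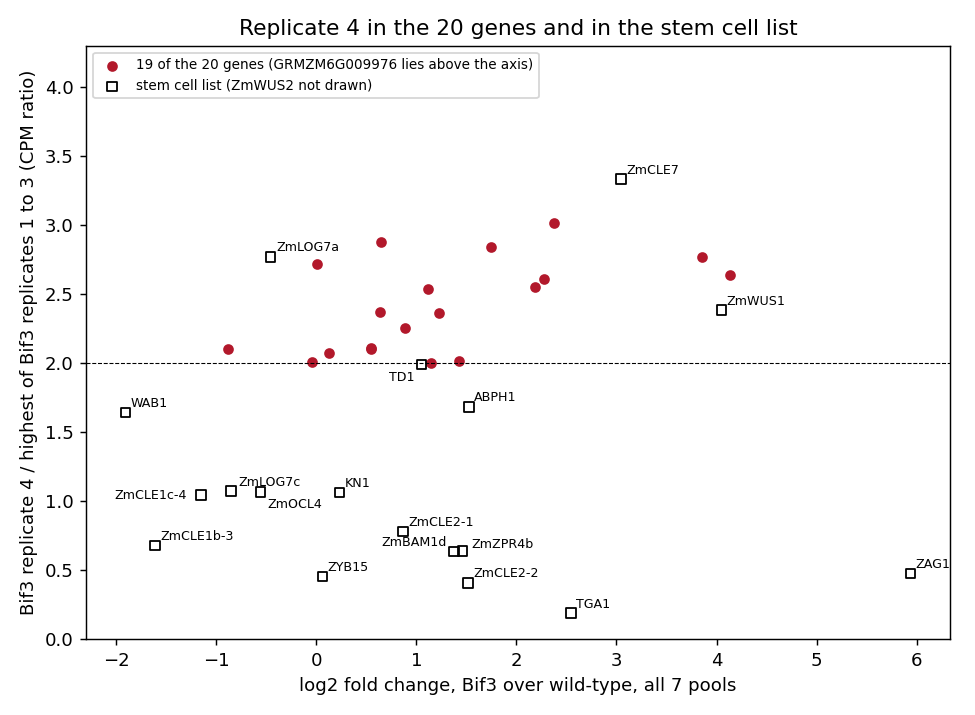
Ratio of *Bif3* replicate 4 to the highest of replicates 1 to 3 (CPM ratio) against the log2 fold change of *Bif3* over wild-type with all 7 pools. Circles are 19 of the 20 genes, with *GRMZM6G009976* above the axis at 35.3, and squares are the stem cell list without *ZmWUS2*, which had at most 3 counts in each *Bif3* pool. The dashed line is the limit of 2 that chose the circles, and *ZmWUS1*, *ZmCLE7* and *ZmLOG7a* are the squares above it.

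The marker lists of other tissues, none of which holds any of the 20 genes, did not peak in replicate 4. Summed levels in *Bif3* replicates 1 to 4 were 13.8, 12.9, 9.91 and 9.88 CPM for 19 green leaf genes, and wild-type was between 6.71 and 11.6 CPM. Much of this sum was 1 gene, *PSA2*, with 7.01, 6.84, 7.67 and 6.97 CPM in *Bif3*, and many of the others were near or below the detection limit. The floral organ list held 33 genes taken by MADS-box family names, so it is not limited to genes of floral organs. Its summed levels in *Bif3* were 920, 926, 786 and 799 CPM, with 752 to 919 CPM in wild-type. Replicate 4 was lowest or next to lowest in both lists. The lignified tissue list held 27 genes with cellulose synthase, laccase or caffeic acid pathway names. Their summed levels were 878, 984, 1047 and 1033 CPM, with 842 to 1069 CPM in wild-type. A few genes made most of this sum, such as *GRMZM2G039454* with 332, 369, 420 and 426 CPM in *Bif3*. Many others were near or below the detection limit, so the sum is a weak marker of that tissue. Summed levels of 16 histone and cyclin genes of dividing cells were 1973, 1784, 1469 and 1750 CPM, with 1413 to 1488 CPM in wild-type. Replicate 4 was within the range of the other *Bif3* pools in both of these lists. Only the sum of 5 ear meristem genes was highest in replicate 4, at 732 CPM against 592 to 705 CPM in replicates 1 to 3. Most of this sum was *KN1*, with 567, 552, 487 and 603 CPM in *Bif3* replicates 1 to 4. Replicate 4 was the highest *Bif3* pool for 4 of the 5 genes, beside 21.2% of the 19807 genes past the level limit. Of these, *ZmLOG7a* met the rule itself. For *KN1*, *ZmOCL4* and *ZmLOG7c*, replicate 4 was only 1.06 to 1.07 times the next *Bif3* pool. Of the genes of these lists that could be tested, edgeR called 1 of 15 leaf genes, 3 of 30 MADS-box genes and 3 of 16 cell division genes higher, against 3.39% of all genes tested. None of the 19 tested genes of the lignified tissue list was called in either direction. At an unadjusted edgeR p under 0.05, 1 was higher and 1 lower, while DESeq2 called 1 higher and limma-voom none. Of the 5 ear meristem genes 1 was called lower, beside 0.598% of all genes.

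The genes that could be placed were not neighbours in the genome. In the gene order of the current B73 assembly, used for order only, 16 of the 20 could be placed. The closest pair, *GRMZM2G099467* and *GRMZM2G086869*, had a distance of 207 genes, and *VQ16*, on the chromosome of *ZmWUS1*, was 4781 genes away from it. Of the 16, 15 are annotated as protein-coding. The genes whose roles are given here belong to transport of sugar and phosphate (*SWEET4C*, *pht1*), cell wall (*GRMZM2G178025*), transcription (*ZmHB13*, *VQ16*) and membrane organization (*GRMZM2G004511*), and the other 14, *sfp4* among them, were placed in no class. *VQ16* is placed by its family name only, since its locus is listed as a transcribed pseudogene. The strand setting of the counting is not given in the sources used here, so levels of overlapping genes and of close paralogs are uncertain.

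The limits of the rule cut through a continuous range. Just inside the ratio were *GRMZM2G090528* at 2.01, *GRMZM2G093908* at 2.01 and *ZmHB13* at 2.02. Just outside were *GRMZM2G128969* at 1.996, *TD1* at 1.99 and *GRMZM2G300965*, annotated in the study as a respiratory burst oxidase, at 1.96. The last of these had 1.37, 0.456, 2.68 and 5.25 CPM in *Bif3* and 0.527, 0.196 and 0.311 CPM in wild-type. On level, *GRMZM2G178025* at a mean of 2.03 CPM, *VQ16* at 2.09 CPM and the remorin gene at 2.28 CPM were just inside. *GRMZM2G060742* at 1.81 CPM, *GRMZM2G034113* at 1.72 CPM and *GRMZM2G022402* at 1.68 CPM were just outside. Of the latter, *GRMZM2G022402* had a ratio of 3.13, above that of 19 of the 20 genes.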

How the data were processed

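RNA of 7 pools of ear primordia was sequenced from stranded TruSeq libraries. The deposited values are read counts per gene, whole numbers without normalization. By their Methods, the authors used Trimmomatic for trimming, HISAT for alignment against B73 v3 and HTSeq-count for counting, while the submitters' processing notes name TopHat2 2.1.1 and Cuffdiff. The strand setting and annotation release are not given in the sources used here.

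Levels are CPM on unscaled column sums, as the rule for the genes asks. Differential expression was tested in R 4.3.3 with edgeR 4.0.16 (quasi-likelihood F test in its earlier form, as the study used an earlier version), with TMM scaling and no covariate, on the 40650 genes that had 2 or more counts over all pools. P-values were adjusted by Benjamini-Hochberg over all genes tested. The threshold was that of the study (p under 0.05, adjusted p under 0.1, fold change over 1.5), the biological coefficient of variation was 0.171, and standard errors came from fold changes and F statistics.

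The 20 genes, the lists and the tests were chosen with earlier results of these data known. Values were given for every one of the 20 genes, in full for those with the highest ratios, levels or fold changes or past the threshold, and for the 3 genes on each side of both limits. Names came from the study's annotation and from symbols and synonyms in a RefSeq table of NAM-5.0, where 16 of the 20 genes matched. That table has no descriptions, so marker lists were matched by symbol or synonym. Since its build differs, no coordinates were used.

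Alternatives were DESeq2 1.42.0 and its size factors, no TMM scaling, the newer fit of edgeR, limma-voom (limma 3.58.1), edgeR's filter on low counts, every gene of the table, a replicate block, leaving out each pool, an adjusted p under 0.05, and other limits for choosing the genes. Replicate numbers were not taken as pairs, because the deviations of same-numbered pools did not correlate in every pair.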

Additional observations from a re-analysis of the deposited data

Results flagged for a closer look

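For 7 of the 20 genes and for *ZmWUS1*, replicate 4 lay far from the other *Bif3* pools in the sense of Dixon's test, by its gap to the next pool as a share of the range of the 4 pools. The share was 0.988 for *GRMZM6G009976*, 0.977 for *GRMZM2G093908*, 0.945 for *GRMZM2G525640*, 0.929 for *GRMZM2G563077*, 0.878 for *GRMZM2G104204* (*ZmHB13*), 0.865 for *GRMZM2G083538*, 0.836 for *GRMZM2G047448* (*ZmWUS1*) and 0.835 for *GRMZM2G178025*. The choice of the genes required replicate 4 to lie well above the next pool, so the number of such genes says nothing further about them. In genes not chosen this way, chance places about 1 in 20 groups past the critical value, counting any pool at either end.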

How the results depend on the processing

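Of the fold changes of the 20 genes under 15 alternatives, 270 kept their direction and their side of the threshold, 11 became significant, 3 lost significance and 16 reversed. The count of 5 genes called higher was 8 with the replicate block and, with 1 pool left out, between 3 (wild-type replicate 2 left out) and 8 (*Bif3* replicate 3 left out). The count of 0 called lower was 1 with the block and ranged from 0 to 1. The block drops *Bif3* replicate 4 from the contrast, since no wild-type pool has its number, and the correlations of same-numbered pools were -0.001, 0.507 and 0.265. Over all genes tested, 1380 were called higher and 243 lower, against 891 and 137 at an adjusted p under 0.05, 1994 and 394 with the replicate block, and 687 to 1817 and 114 to 327 with a pool left out. Reversed fold changes, all of genes not called, were -0.29 for *GRMZM2G118821*, -0.043 for *GRMZM2G154211*, -0.33 for *GRMZM2G563077* and -0.13 for *GRMZM6G009976* with the replicate block. With a pool left out, the fold changes of the genes that reversed ranged from -0.094 to 1.56 for *GRMZM2G083538*, -0.40 to 0.17 for *GRMZM2G093908*, -0.33 to 0.35 for *GRMZM2G118821*, -0.030 to 0.79 for *GRMZM2G154211*, -0.58 to 0.86 for *GRMZM2G563077* and -0.39 to 4.86 for *GRMZM6G009976*, and the lowest value was that without *Bif3* replicate 4. The rule took 82 genes at a ratio of at least 1.5, 2 at a ratio of at least 3, 35 at a mean of at least 1 CPM and 8 at a mean of at least 5 CPM. With TMM-scaled levels it took 25, among them all 20. The number of genes with wild-type pools at least 2-fold apart was 15, and 5 to 12 with a wild-type pool left out, and wild-type replicate 2 was lowest in 17 genes with TMM-scaled levels. Both of these alternatives were chosen after seeing the data. Genes with a few counts in a pool, such as *VQ16* and *GRMZM6G009976* in wild-type, are the least precise, and the causes of these changes were not tested.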
